A study of Mus musculus with 12 samples.

Results

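The proteasome subunit genes were taken as the rows of the UMI count table whose mouse symbol starts with Psma, Psmb, Psmc, Psmd, Psme, Psmf or Psmg followed by a digit. Symbols of pseudogenes and of antisense transcripts were left out, and 51 of the 32546 genes of the table were members. The rule also left out 3 processed pseudogenes, which held 10 UMIs (Psma5-ps), 2 UMIs (Psmb5-ps) and 1 UMI (Psmb6-ps2) over all replicates. By role, the members were 7 genes of the 20S alpha ring, 7 structural genes of the 20S beta ring, 5 inducible or tissue-specific 20S subunits, 6 ATPases and 11 non-ATPases of the 19S particle, 3 chaperones of 19S assembly, 5 activators, 1 inhibitor and 4 chaperones of 20S assembly. The symbol rule also took in 2 genes that are no subunits, Psmc3ip and Psme3ip1.

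The proteasome degrades proteins that carry chains of ubiquitin. Its barrel, the 20S core, has outer rings of alpha subunits that gate the entry and inner rings of beta subunits that include the cutting sites, and the 19S particle binds the chains, removes them and unfolds the substrate with a ring of ATPases. In neurons, protein turnover by the proteasome takes part in synaptic plasticity, and when proteasome activity falls, the transcription factor encoded by Nfe2l1 raises the transcription of subunit genes.

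The data came from photo-isolation chemistry, in which light releases caged RT primers within a chosen region of a section, so that cDNA of that region enters a CEL-seq2 library. CA1, CA3 and the dentate gyrus (DG) of male ICR mice aged 8 weeks, with no transgene or drug named, were each irradiated in 4 histological conditions, with 4 barcoded replicates per region and condition. Fresh-frozen tissue was permeabilized either with HCl (0.1 N, 5 min) or with TE (70 °C, 1 h), and tissue fixed with 4% PFA was cut either frozen or embedded in paraffin, both with the TE step. In the paper's protocol, sections of every kind, fresh-frozen ones included, were briefly treated with 4% PFA before permeabilization. Fixed here thus means fixed before sectioning. The protocol's HCl step also included Triton X-100 and heated PBS, which its TE step did not. The 4 replicates of a region and condition were pooled in 1 of 12 libraries, so that within a condition the region and the library cannot be told apart. The same holds for the condition and the library within a region. Lists of marker genes for CA1 pyramidal cells, CA3 pyramidal cells and DG granule cells each had their highest summed CPM (UMIs per 1000000 UMIs of a replicate) in the region they mark, with medians of 1156, 1103 and 1974 CPM there and at most 494 CPM elsewhere. Totals per replicate ran from 127253 to 933756 UMIs with HCl and from 294445 to 1111804 UMIs with TE in the fresh-frozen tissue, and from 52800 to 307145 UMIs in fixed frozen and from 35932 to 223055 UMIs in paraffin sections, and replicate 4 had the lowest total in 12 of 12 libraries. The members held 22711, 23676, 7534 and 3179 UMIs in these conditions, so that the paraffin sections gave the fewest UMIs per value. A region holds several cell types, and fewer cells of a type and less RNA per cell cannot be told apart.

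Promoters from RefSeq (GRCm38.p6, 250 bases before to 50 bases after the start) matched 43 of the 51 members. The letters TGACNNNGC, a pattern known as the antioxidant response element to which the factor encoded by Nfe2l1 binds, were searched on both strands and stood in 6 of the 43 members (14.0%) and in 14.0% of 27025 genes. CCAAT, the CCAAT box, stood in 16 of the 43 members (37.2%) and in 41.1% of all genes. The shares of both patterns among the members were thus close to, or below, those of all genes, and a match here is a description of letters. The 4 stretches below are those of members with TGACNNNGC within 50 bases of the start, the match in capitals, shown because they include Psmb5, the member with the largest log2 fold change when fixed frozen was compared with TE-permeabilized fresh-frozen or paraffin tissue. Each runs from 100 bases before the start to 10 bases after it. In Psme4 the match lies on the opposite strand, so that its capitals read as the reverse complement.
Psmb5 (chr14:54617986-54618095, minus strand): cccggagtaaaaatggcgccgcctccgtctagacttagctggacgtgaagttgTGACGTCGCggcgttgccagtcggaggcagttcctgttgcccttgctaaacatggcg
Psmb6 (chr11:70525257-70525366, plus strand): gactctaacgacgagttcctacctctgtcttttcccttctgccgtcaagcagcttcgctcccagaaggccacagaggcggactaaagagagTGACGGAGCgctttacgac
Psmd9 (chr5:123228090-123228199, plus strand): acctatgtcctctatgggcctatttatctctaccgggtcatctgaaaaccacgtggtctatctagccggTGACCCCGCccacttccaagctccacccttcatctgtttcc
Psme4 (chr11:30771675-30771784, plus strand): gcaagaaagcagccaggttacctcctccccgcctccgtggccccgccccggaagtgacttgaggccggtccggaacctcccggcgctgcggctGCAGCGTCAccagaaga
The first 3 carried the match 47, 9 and 31 bases before the start, and Psme4 carried it 7 bases before the start. Between TE-permeabilized fresh-frozen and fixed frozen sections, described further on, Psmb5 and Psmb6 were called higher and Psme4 lower in the fixed tissue, and Psmd9, a chaperone of 19S assembly, had a log2 fold change of -0.20 ± 0.44 that was not called (adjusted p = 0.734).

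All 51 members had at least 1 UMI, but their levels differed widely. Levels are mean CPM over the 48 replicates, and since CEL-seq2 counts the 3′ ends of transcripts, they were not divided by length. Among the 11 non-ATPases of the 19S particle the mean CPM ran from 32.6 for Psmd13 to 280 for Psmd1, a large scaffold subunit with the highest level of any member (rank 621 of all genes). In the 20S alpha ring it ran from 17.0 for Psma4 to 164 for Psma1. In the structural part of the 20S beta ring it ran from 1.43 for Psmb7, the catalytic subunit with trypsin-like activity, to 190 for Psmb4. The 6 ATPases lay between 66.0 for Psmc5 and 122 for Psmc2.

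Most genes outside the constitutive core and the 19S particle lay lower, with a median of mean CPM of 15.4 in the chaperones of 19S assembly, 13 in those of 20S assembly and 13.3 in the activators, beside 85.6 in the alpha ring, 42.9 in the structural beta ring, 80.8 in the ATPases and 95.4 in the non-ATPases. The chaperones of 19S assembly ran from 13.5 CPM for Psmd10 to 41.4 CPM for Psmd5, and those of 20S assembly from 4.33 CPM for Psmg1 to 18.9 CPM for Psmg2. Among the activators, Psme3, which caps the core in the nucleus, stood at 113 CPM and Psme2b at 1.53 CPM. Psmf1, a protein that binds and inhibits the core in vitro, stood at 29.9 CPM.

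**Figure D1:**
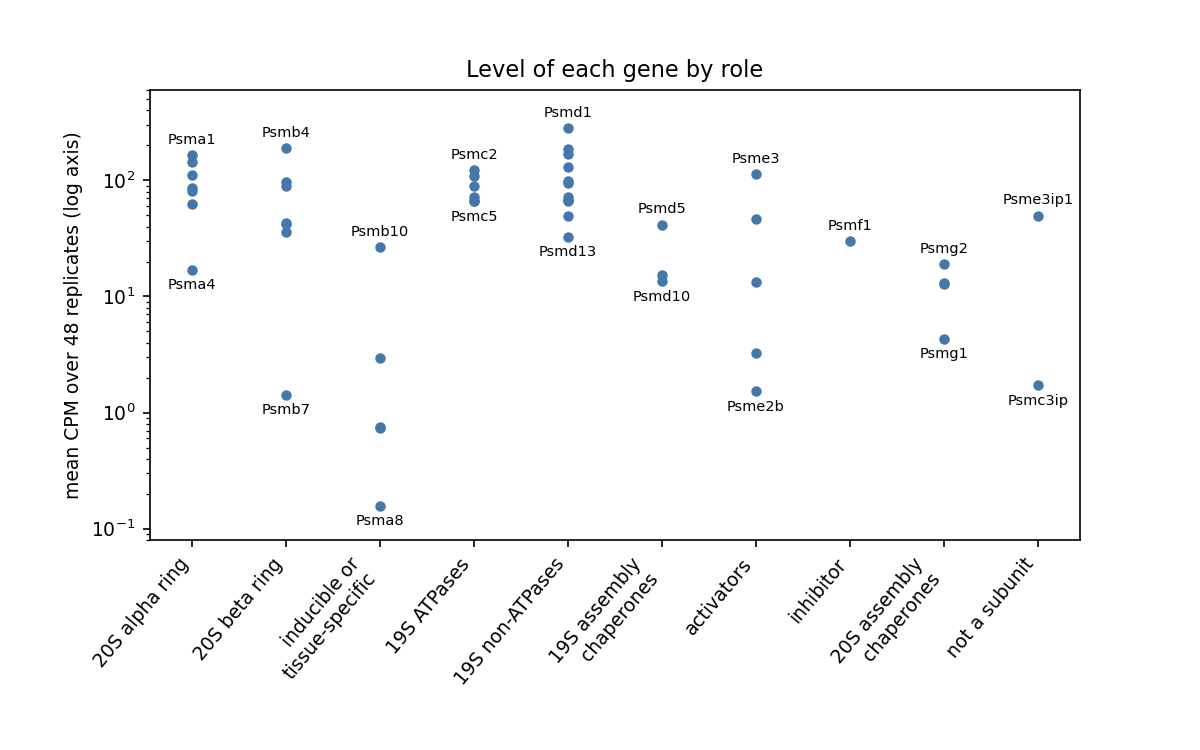
Mean CPM over 48 replicates (log axis) of each of the 51 genes, 1 point per gene, by role, with the highest and the lowest gene of each role named. Psmd1 is highest at 280 CPM, and 4 of the 5 inducible or tissue-specific subunits lie below 3 CPM.

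The inducible subunits that replace the catalytic beta subunits in the immunoproteasome were near the limit of detection, apart from Psmb10. Psmb8 held 12 UMIs and Psmb9 held 7 UMIs over all 48 replicates. Psmb10, the inducible counterpart of Psmb7, held 383 UMIs, with lowest, median and highest levels of 5.11, 21.7 and 28.7 CPM in TE-permeabilized fresh-frozen sections and of 0, 30.2 and 94.7 CPM in fixed frozen sections. These ranges overlapped, and Psmb10 was called in no comparison between regions over all conditions or between conditions. Psmb11, the thymus-specific subunit, held 26 UMIs, and Psma8, the subunit specific to the testis, held 4 UMIs, each in a different replicate of TE-permeabilized fresh-frozen sections. Psmb11 was tested between paraffin (10 UMIs) and fixed frozen sections (3 UMIs), with a log2 fold change of 1.68 ± 0.70 that was not called (adjusted p = 0.0585). The counts of Psmb8, Psmb9 and Psma8 were too few for the comparisons of conditions.

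Of the 2 genes that are no subunits, Psmc3ip, a factor of meiotic recombination, held 28 UMIs, and 376 of the 925 bases at the 3′ ends of its transcripts are shared with Mlx on the opposite strand, so that its UMIs are uncertain. Psme3ip1, whose product binds Psme3, stood at 49.6 CPM. The same kind of overlap touches Psmb7, where 300 of 600 bases at the 3′ ends of transcripts lie in Nek6 on the opposite strand. It also touches Psmb8 (239 of 912 bases, Gm20496), Psmd9 (309 of 1865, Gm26745), Psma4 (89 of 1363, AY074887) and Psmc3 (107 of 1775, Slc39a13), and in Psmd1 228 of 1909 bases are shared with Htr2b on the opposite strand or Gm21972 on the same strand. The featureCounts command in the study's methods sets no strand option, which by default assigns reads without regard to strand. It also sets no option to count reads that overlap several genes, which by default are assigned to none of them. Reads from the shared bases may thus be missing from the counts, and the values of these genes are uncertain to that extent.

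Together, the members gave a larger share of all UMIs in fixed frozen sections than in the other conditions. The share was 0.291% ± 0.0198 (SD, n = 12 replicates) in HCl-permeabilized and 0.300% ± 0.0193 (n = 12) in TE-permeabilized fresh-frozen sections, 0.453% ± 0.0306 (n = 12) in fixed frozen sections and 0.296% ± 0.0434 (n = 12) in paraffin sections. The 12 fixed frozen replicates lay between 0.401% and 0.507%, above the highest replicate of any other condition (0.352% in paraffin). By region the share was 0.321% ± 0.0791 in CA1, 0.342% ± 0.0809 in CA3 and 0.341% ± 0.0674 in DG (n = 16 each). These SDs include the differences between the conditions, so that they are no measure for the differences between regions, which were not tested for the share. Against nuclear-encoded UMIs alone the fixed frozen share was 0.491% and the TE-permeabilized fresh-frozen share 0.311%.

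**Figure D2:**
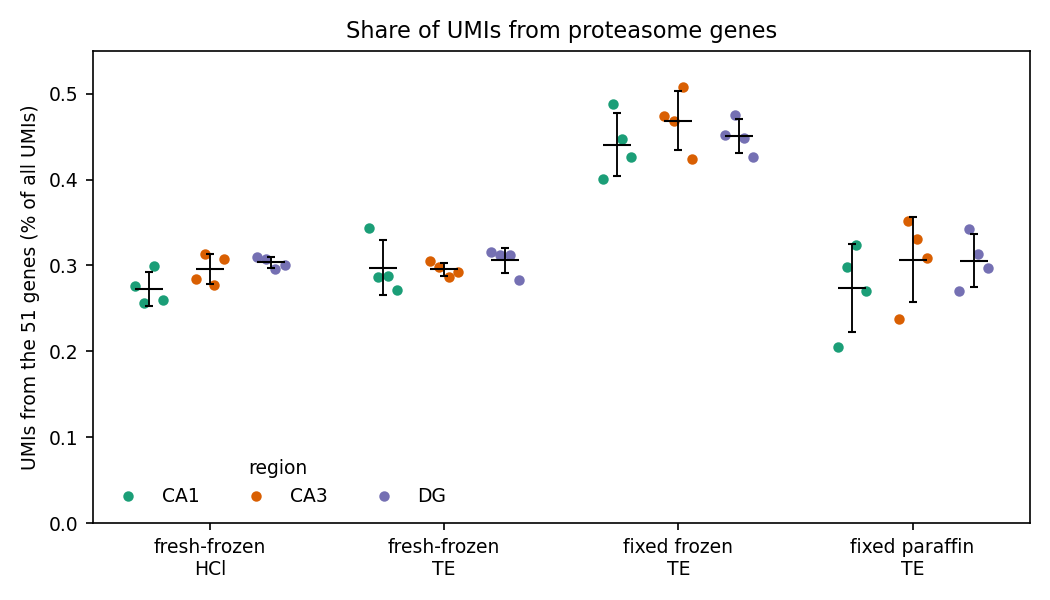
UMIs from the 51 genes as a percentage of all UMIs of a replicate, in 4 histological conditions and 3 regions (4 points per group, 1 per replicate, with the mean as a horizontal line and ± 1 SD as bars). The fixed frozen replicates of all 3 regions lie at 0.401% or above, and all other replicates at 0.352% or below.

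Sums over roles were higher in the core and the 19S particle and not in the activators. From TE-permeabilized fresh-frozen to fixed frozen sections the summed CPM of the alpha ring went from 575 ± 56.8 to 961 ± 91.9, that of the structural beta ring from 418 ± 59.9 to 743 ± 125, that of the ATPases from 479 ± 33.2 to 736 ± 153 and that of the non-ATPases from 1157 ± 70.5 to 1678 ± 99.6 (SD, n = 12 each). That of the 5 activators went from 173 ± 22.3 to 149 ± 30.0. The summed CPM of all members was 1536 CPM higher in fixed frozen sections, and Psma1 (164 CPM of that difference), Psma2 (154 CPM) and Psmd14 (153 CPM), the deubiquitinase of the 19S lid, contributed most. In paraffin sections the sums of the alpha ring, the beta ring, the ATPases and the non-ATPases were 594 ± 125, 446 ± 162, 437 ± 114 and 1019 ± 171 CPM (n = 12 each). The ranges of fixed frozen and TE-permeabilized fresh-frozen replicates did not overlap for the alpha ring, the beta ring and the non-ATPases, and overlapped for the ATPases.

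Gene by gene, fixation of frozen tissue was compared in TE-permeabilized sections with edgeR's quasi-likelihood test, with region as a covariate and genes with at least 10 UMIs in the replicates compared. Of 46 members tested, 20 were called higher in fixed frozen sections and 4 lower (adjusted p under 0.05), and 48.7% of all 15878 genes tested were called in either direction, 15.8% as higher and 32.9% as lower. The median log2 fold change was 0.32 for the members and -0.39 for all genes tested, a difference of 0.71. The scaling moved these values: with TMM factors from genes averaging 10 UMIs or more, the medians were 0.55 and -0.18, a difference of 0.73, and 22 members were called higher and 4 lower, where 20.6% of all genes were called higher and 25.6% lower. The fold changes of single members given next are those with TMM factors from all genes tested. The members called higher were 4 of 7 in the alpha ring, 4 of 7 in the structural beta ring, 4 of 6 ATPases, 6 of 11 non-ATPases, 1 of 4 chaperones of 20S assembly and the non-subunit Psme3ip1, and none was called among the 3 chaperones of 19S assembly. All 20 had a positive log2 fold change in each of the 3 regions, and 13 of them were called in each region on its own. The 20 were chosen from these same replicates, so that the agreement of the regions is partly given by the choice. The same share among all genes called higher was not computed. The members called were 16 higher and 1 lower of 43 in CA1 (26.0% of all genes in either direction), 18 and 2 of 44 in CA3 (30.2%) and 18 and 2 of 42 in DG (37.6%).

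Psmb5, the catalytic subunit with chymotrypsin-like activity (chr14:54614119-54618022, minus strand, GRCm38), changed most. Its lowest, median and highest levels were 0, 3.91 and 24.3 CPM in TE-permeabilized fresh-frozen sections and 36.9, 146 and 246 CPM in fixed frozen sections. The ranges did not overlap, and the log2 fold change was 4.30 ± 0.27 (SE), with an adjusted p of 1.81e-25. Within single regions the log2 fold change of Psmb5 ran from 2.40 to 6.26, so that 4.30 is an average over unlike regions. Among all genes tested, 2.36% were higher in fixed frozen sections without overlap of the 12 replicates of each condition, and among the 46 members these were 8, namely Psma1, Psma2, Psma6, Psmb5, Psmc4, Psmd14, Psmd3 and Psmd6. No member was lower without overlap, against 4.44% of all genes. The UMIs behind Psmb5 were few, 50 in all TE-permeabilized fresh-frozen and 219 in all fixed frozen replicates.

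The next members by size were both subunits of the lid of the 19S particle. Psmd3 (chr11:98682554-98695979, plus strand) had lowest, median and highest levels of 3.40, 16.2 and 23.9 CPM in TE-permeabilized fresh-frozen sections and of 43.5, 112 and 165 CPM in fixed frozen sections, a log2 fold change of 2.66 ± 0.20 (adjusted p = 4.79e-21). Psmd6 (chr14:14112174-14120984, minus strand) went from 5.11, 27.6 and 35.1 CPM to 75.8, 130 and 221 CPM, a log2 fold change of 2.46 ± 0.19 (adjusted p = 3.74e-20). Within single regions the log2 fold change of Psmd3 ran from 2.40 to 2.98 and that of Psmd6 from 2.14 to 2.99.

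Psmg4, a chaperone of 20S assembly, was called at a lower level, where the groups overlapped. Its levels were 0, 4.80 and 9.65 CPM in TE-permeabilized fresh-frozen sections and 0, 18.7 and 55.3 CPM in fixed frozen sections (log2 fold change 2.03 ± 0.38, adjusted p = 5.67e-06). Psmc4, an ATPase, had 15.1, 33.5 and 41.3 CPM and then 55.3, 128 and 171 CPM (log2 fold change 2.0 ± 0.18, adjusted p = 9.19e-17), without overlap. The other members called higher had log2 fold changes from 0.61 for Psmb6, the catalytic subunit with caspase-like activity, to 1.74 for Psma6.

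The 4 members called lower were Psmb7, Psme4, Psma3 and Psma7. Psmb7 held 21 UMIs in TE-permeabilized fresh-frozen sections and 0 UMIs in the fixed frozen and in the paraffin replicates, at least 1.46-fold lower in fixed frozen sections against a floor of 3 UMIs over the group. It passed the filter on low counts through the fresh-frozen group alone, and without replicate 2, or with library sums, it was not called. Psma3, an alpha subunit, had lowest, median and highest levels of 130, 160 and 238 CPM in TE-permeabilized fresh-frozen and of 66.3, 101 and 141 CPM in fixed frozen sections. The ranges overlapped slightly, and the log2 fold change was -0.80 ± 0.15 (adjusted p = 3.31e-06). Psme4, a large activator of the core, had a log2 fold change of -0.96 ± 0.25, and Psma7, an alpha subunit, one of -0.62 ± 0.17.

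**Figure D3:**
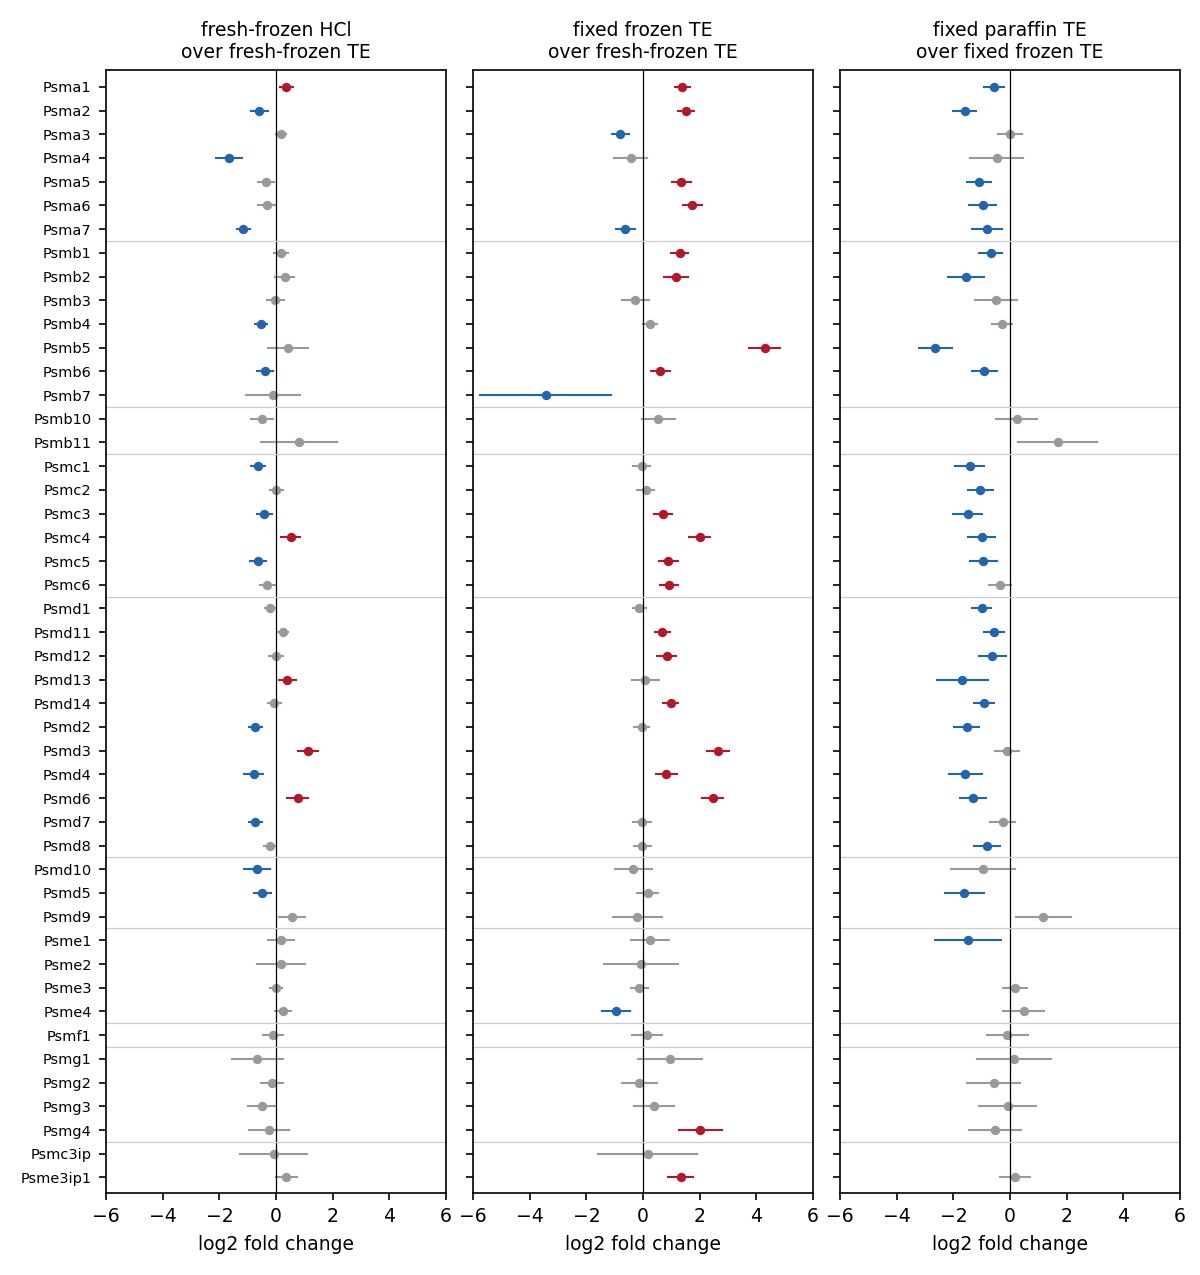
Log2 fold changes of the members tested (points) with 95% confidence intervals (lines) between pairs of conditions, with region as a covariate and grey rules between roles, in red where called higher, in blue where called lower and in grey where not called, with lines clipped at ± 6. In the middle panel 20 genes are red and 4 blue, and in the right panel 25 are blue and none is red.

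Markers of other cell types moved with fixation as well. The summed CPM of 8 astrocyte markers had a lowest, median and highest value of 4439, 5337 and 8083 in TE-permeabilized fresh-frozen, of 1458, 1914 and 2553 in fixed frozen and of 1743, 2351 and 3594 in paraffin sections. That of 8 endothelial markers was 252, 335 and 401, then 37.9, 147 and 221, and then 50.1, 166 and 293. Both lists had lower medians in both kinds of fixed tissue. In the same order the medians were 1073, 989 and 976 CPM for interneuron and 7205, 5794 and 15455 CPM for oligodendrocyte markers. They were 198, 130 and 81.0 CPM for microglia and 1025, 404 and 1079 CPM for choroid plexus markers. The part of these markers and of the lower depth in the results was not tested. With every replicate thinned to 35932 UMIs, the smallest total, 21 of 39 members tested were called higher and 1 lower, where 14.1% of all genes were called higher and 15.6% lower.

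The embedding was compared between paraffin and fixed frozen sections, which share the fixed frozen replicates with the comparison before. Of 44 members tested, none was called higher in paraffin and 25 were called lower, while 28.2% of all 12189 genes tested were called in either direction, 13.1% as higher and 15.1% as lower. The median log2 fold change was -0.75 for the members and 0.02 for all genes tested. By role, 5 of 6 ATPases, 9 of 11 non-ATPases, 5 of 7 in the alpha ring, 4 of 6 tested in the structural beta ring, 1 of 3 chaperones of 19S assembly and 1 of 3 activators tested were called lower. Of the 25, 23 had a negative log2 fold change in each of the 3 regions. The 25 were chosen from the same replicates, so that this agreement is partly given by the choice. The members called lower were 6 of 41 in CA1 (12.4% of all genes in either direction), 11 of 38 in CA3 (11.5%) and 18 of 42 in DG (20.3%), and none was called higher there. No member was without overlap between the 12 replicates of each condition, where 0.533% of all genes were lower and 0.312% higher in paraffin without overlap. At one depth for all replicates, 8 of 40 members tested were called lower and 1 higher, where 6.50% of all genes were called lower and 9.19% higher. The scaling moved this comparison: when TMM factors came only from genes averaging 10 UMIs or more, the median of all genes was 0.32, 18 members were called lower and 2 higher (8.02% and 22.4% of all genes), and the members' median lay below that of all genes by 0.76 on the log2 scale, and by 0.76 also with TMM factors from all genes tested.

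Psmb5 again changed most, with lowest, median and highest levels of 36.9, 146 and 246 CPM in fixed frozen and of 0, 7.53 and 58.3 CPM in paraffin sections. Only the upper end of the paraffin values reached the lower end of the fixed frozen values, and the log2 fold change was -2.64 ± 0.29 (adjusted p = 6.84e-16). Within single regions it ran from -5.64 to -2.09, with the lowest value in CA1, where paraffin held no UMI of Psmb5 and the size cannot be read. Psmd13, a subunit of the lid, had levels of 16.5, 36.3 and 54.8 CPM in fixed frozen sections and was detected in 5 of 12 paraffin replicates, with a highest level of 55.7 CPM and a log2 fold change of -1.69 ± 0.46 (adjusted p = 0.00186).

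Psmd5, a chaperone that holds part of the 19S base during assembly, went from 29.0, 58.2 and 78.3 CPM to 0, 12.1 and 55.7 CPM (log2 fold change -1.62 ± 0.35). Psma2, an alpha subunit, went from 152, 227 and 349 CPM to 42.7, 76.0 and 156 CPM (log2 fold change -1.60 ± 0.20), with an overlap of the ranges by a few CPM. Psmd4, a receptor for ubiquitin chains, went from 36.7, 78.2 and 136 CPM to 0, 26.8 and 83.7 CPM (log2 fold change -1.59 ± 0.30). These medians in paraffin stood beside TE-permeabilized fresh-frozen medians of 3.91 CPM for Psmb5, 34.6 CPM for Psmd13, 49.8 CPM for Psmd5, 74.9 CPM for Psma2 and 50.2 CPM for Psmd4. Psmd3, in contrast, kept a median of 81.7 CPM in paraffin, with a log2 fold change of -0.12 ± 0.22 from fixed frozen sections that was not called (adjusted p = 0.712). Marker sums differed here too, with medians of 5794 CPM in fixed frozen and 15455 CPM in paraffin sections for 8 oligodendrocyte markers, whose part was not tested.

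Permeabilization was compared in fresh-frozen sections, HCl against TE. Of 47 members tested, 5 were called higher with HCl and 13 lower, against 30.6% of all 18164 genes tested in either direction (16.3% higher, 14.3% lower). The median log2 fold change was -0.12 for the members and 0.10 for all genes tested. The calls went both ways within roles, with 1 higher and 3 lower among the ATPases, 3 higher and 3 lower among the non-ATPases and 1 higher and 3 lower in the alpha ring, and no activator or chaperone of 20S assembly was called. By region 2 higher and 9 lower of 46 were called in CA1 (20.8% of all genes in either direction), 1 and 3 of 45 in CA3 (13.5%) and 3 and 8 of 44 in DG (15.4%). When DESeq2 was used, 8 were called higher and 13 lower (18.5% and 15.5% of all genes), and after thinning to 35932 UMIs 1 of 38 was called higher and none lower (3.70% and 3.43% of all genes).

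Both largest falls were in the alpha ring. Psma4 had lowest, median and highest levels of 13.6, 24 and 44.3 CPM with TE and of 2.84, 7.35 and 16.1 CPM with HCl (log2 fold change -1.66 ± 0.23, adjusted p = 1.17e-07). Psma7 went from 91.7, 131 and 173 CPM to 43.8, 67.9 and 84.6 CPM, the only member without overlap between the 2 permeabilizations (log2 fold change -1.15 ± 0.12, adjusted p = 9.46e-11), where 0.721% of all genes were lower and 0.787% higher with HCl without overlap. Psmd4 had a log2 fold change of -0.79 ± 0.17 (adjusted p = 0.000228). Psmd3 and Psmd6, the lid subunits that were higher in fixed frozen sections, were called higher with HCl as well, with highest TE values of 23.9 and 35.1 CPM beside HCl medians of 39.4 and 40.2 CPM. Their log2 fold changes were 1.13 ± 0.18 (adjusted p = 1.24e-06) and 0.77 ± 0.18 (adjusted p = 0.000828), and both comparisons share the TE-permeabilized fresh-frozen replicates. Psmd3 was called in each of the 3 regions (0.93 to 1.30), while Psmd6 was called in 1 of 3 (0.12 to 1.21) and had a log2 fold change of -0.0833 after thinning (adjusted p = 0.955).

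Between regions few members were called. Over all 4 conditions, with condition as a covariate, 49 of the 51 members could be tested, all but Psma8 and Psmb9. Between CA1 and DG 1 member was called higher in CA1 and 5 were called lower, where 18.0% of all 18884 genes tested were called (7.85% higher, 10.2% lower). Of the 5, Psme2b passed the filter on low counts without a UMI in CA1. Between CA3 and DG no member was called by edgeR, against 14.3% of all genes (6.14% higher, 8.15% lower), with 4 members at an unadjusted p under 0.05 and 2 called lower in CA3 by DESeq2 (11.7% of all genes). Between CA1 and CA3 1 member was called, lower in CA1, against 9.26% of all genes (4.40% higher, 4.86% lower). For 42 of the 49 members the 95% confidence interval of the CA1 to DG difference lay within 1 on the log2 scale in both directions. The same share over all genes tested was not computed, so that this count cannot be called particular to the members.

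**Figure D4:**
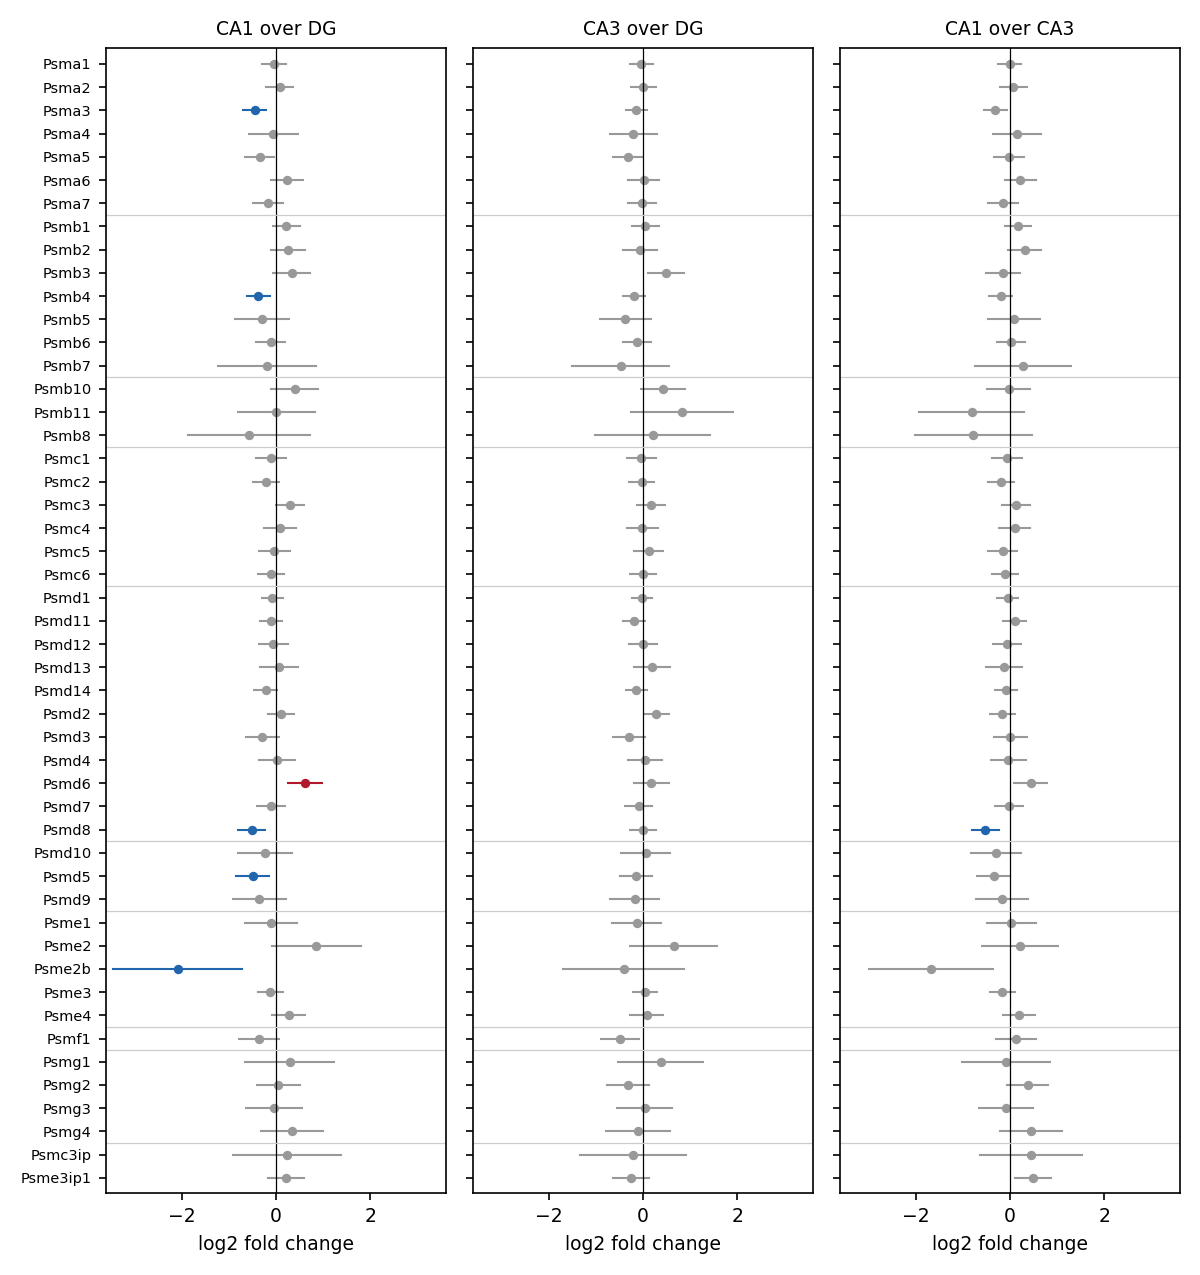
Log2 fold changes (points) with 95% confidence intervals (lines) of the 49 members tested between pairs of regions over all 4 conditions, with grey rules between roles, in red where called higher in the first region, in blue where called lower and in grey where not called. In the left panel Psmd6 is red and 5 genes are blue, the middle panel has no call, and Psmd8 is the call in the right panel.

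Psmd6 was the member called higher in CA1 than in DG. In HCl-permeabilized fresh-frozen sections its 4 replicates had 56.1, 70.5, 82.8 and 62.9 CPM in CA1, 39.7, 40.7, 35.8 and 50.6 CPM in CA3 and 22.7, 17.1, 20.3 and 33.5 CPM in DG. The 3 regions did not overlap there. In TE-permeabilized fresh-frozen sections CA1 had 28.7, 28.6, 16.2 and 35.1 CPM and DG had 30.5, 5.11, 15.1 and 27.2 CPM, which overlapped, as the fixed tissues did. The log2 fold change over all conditions was 0.62 ± 0.18 (adjusted p = 0.00825), and without the HCl-permeabilized sections it was 0.19 (adjusted p = 0.663).

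Psmd8, a lid subunit (chr7:29174188-29180701, minus strand), was lower in CA1 than in DG and than in CA3. With HCl its replicates had 80.7, 73.8, 74.8 and 94.3 CPM in CA1, 118, 115, 100 and 109 CPM in CA3 and 122, 124, 112 and 142 CPM in DG. In paraffin sections they had 21.3, 54.0, 14.1 and 0 CPM in CA1, 132, 161, 83.7 and 125 CPM in CA3 and 54.2, 44.5, 67.2 and 93.4 CPM in DG. CA1 lay below CA3 without overlap in both of these conditions, with 5 UMIs in all behind the paraffin CA1 values. The log2 fold changes were -0.52 ± 0.14 against DG (adjusted p = 0.00508) and -0.53 ± 0.14 against CA3 (adjusted p = 0.00781), and both were negative in all 4 conditions.

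Psma3 (chr12:70974621-70996347, plus strand) followed the order CA1, CA3, DG in fresh-frozen sections. With HCl its replicates had 181, 169, 175 and 86.4 CPM in CA1, 204, 199, 186 and 204 CPM in CA3 and 270, 247, 221 and 260 CPM in DG. With TE they had 139, 139, 138 and 130 CPM in CA1, 162, 183, 165 and 137 CPM in CA3 and 185, 158, 171 and 238 CPM in DG. The 3 regions were apart with HCl, and CA1 was apart from DG with TE. In fixed frozen sections CA1 (66.3 to 130 CPM) and DG (67.1 to 111 CPM) overlapped, and the log2 fold change over all conditions was -0.45 ± 0.12 (adjusted p = 0.00362).

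Psmb4, a structural beta subunit, had lowest, median and highest levels of 105, 161 and 249 CPM in the 16 CA1 replicates and of 124, 200 and 339 CPM in the 16 DG replicates (log2 fold change -0.37 ± 0.12, adjusted p = 0.0194). Psmd5 had 0, 35.4 and 55.7 CPM in CA1 and 6.78, 49.3 and 81.8 CPM in DG (log2 fold change -0.49 ± 0.18, adjusted p = 0.0405). Both ranges overlapped widely, and the call rested on 32 replicates together. Psme2b, a copy of Psme2 with 1 exon, was called with 0 UMIs in CA1 and 8 UMIs in DG, at least 2.81-fold lower in CA1 against a floor of 3 UMIs over the group, and UMIs of the near-identical Psme2 may have been counted there or the reverse. It held 13 UMIs in 9 of the 48 replicates and passed the filter on low counts through DG and CA3 alone. Its call was lost in 2 of the 8 alternatives in which it was tested. Of the 4 next members by adjusted p, Psma5 (-0.35, adjusted p = 0.119), Psmc3 (0.30, adjusted p = 0.172), Psmd14 (-0.22, adjusted p = 0.205) and Psme2 (0.86, adjusted p = 0.216), none was called.

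The regional calls depended on single conditions and replicates. Without the HCl-permeabilized sections 1 member was called between CA1 and DG (11.6% of all genes), and Psma3 (-0.33, adjusted p = 0.198), Psmd8 (-0.43, adjusted p = 0.131), Psmb4 (-0.35, adjusted p = 0.121) and Psmd5 (-0.58, adjusted p = 0.0797) were not, with their signs kept. When 12 library sums stood in for the replicates, 1 was called (10.2% of all genes), Psmd6 (adjusted p = 0.0282). Without replicate 2 of every library 3 were called (13.3% of all genes) and Psmd6 was not (adjusted p = 0.106), and without replicate 3 there were 2 calls (12.6% of all genes) and Psmd8 was not among them (adjusted p = 0.0992). Without replicate 4, Psma3 was not called (adjusted p = 0.116). Oligodendrocyte markers also differed between regions, with a lowest, median and highest summed CPM of 6771, 11569 and 25506 in CA1, of 3769, 8781 and 21047 in CA3 and of 2177, 3759 and 18657 in DG, and their part in the regional differences was not tested.

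Within single conditions the 12 comparisons of regions gave 16 calls in 506 tests of members, from 8 members. With HCl, 4 members were called between CA1 and DG (against 16.9% of all genes), 4 between CA3 and DG (8.99%) and 1 between CA1 and CA3 (9.05%). With TE in fresh-frozen sections the numbers were 1 (10.2%), 0 (7.92%, with 3 at an unadjusted p under 0.05 by edgeR and 0 called by DESeq2) and 1 (4.42%). In fixed frozen sections they were 2 (8.09%), 1 (9.26%) and 1 (7.23%), and in paraffin sections 0 (3.14%, 4 at an unadjusted p under 0.05), 0 (3.26%, 2 at an unadjusted p under 0.05) and 1 (2.28%), with 0 called by DESeq2 in the 3 comparisons in paraffin. With the replicate number as a block, 4 members were called between CA1 and DG in TE-permeabilized fresh-frozen sections in place of 1 (16.1% of all genes), namely Psmb5, Psmd14, Psme4 and Psma3.

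Psma2 was called with HCl in both comparisons with DG. Its replicates had 82.1, 60.7, 54.1 and 55.0 CPM in CA1, 75.0, 62.1, 55.6 and 71.1 CPM in CA3 and 31.2, 34.1, 35.5 and 37.7 CPM in DG. DG lay below both other regions without overlap. With TE the replicates of DG had 73.2, 78.4, 92.3 and 67.9 CPM, within the range of CA1 from 51.2 to 110 CPM.

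Psmb5 was the member whose regional difference changed with the condition. In TE-permeabilized fresh-frozen sections its replicates had 13, 5, 9 and 9 UMIs in CA1 (14.9, 7.53, 12.2 and 24.3 CPM), 3, 3, 2 and 3 UMIs in CA3 (4.42, 2.70, 2.14 and 5.86 CPM) and 1, 1, 0 and 1 UMIs in DG (2.03, 1.70, 0 and 3.40 CPM). CA1 was above both other regions without overlap, with log2 fold changes of 3.03 ± 0.68 over DG (adjusted p = 0.00172) and 1.95 ± 0.50 over CA3 (adjusted p = 0.0180). With HCl the replicates had 5.47, 8.20, 13.8 and 7.86 CPM in CA1, 2.14, 3.21, 7.41 and 6.84 CPM in CA3 and 17.0, 17.1, 12.7 and 16.7 CPM in DG. DG was above CA3 and overlapped with CA1, and CA3 against DG was called with a log2 fold change of -1.65 ± 0.47 (adjusted p = 0.0260). The call over CA3 with TE was lost in 4 of 12 alternatives and the call against DG with HCl in 5 of 13. The call over DG with TE was lost in none of the 13 in which Psmb5 was tested there. Alternatives in which Psmb5 was not tested are left out of these numbers, and after thinning no member was called between CA1 and DG with TE.

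In fixed frozen sections Psmb5 had its lowest values in CA1, in 3 of 4 replicates. Its replicates had 145, 71.9, 59.7 and 36.9 CPM in CA1, 163, 120, 219 and 246 CPM in CA3 and 157, 120, 161 and 147 CPM in DG, with log2 fold changes of -0.96 ± 0.32 against DG (adjusted p = 0.0370) and -1.25 ± 0.35 against CA3 (adjusted p = 0.00799). Replicate 1 of CA1 lay within the ranges of both other regions, and the call was lost in 11 of 14 alternatives against DG and in 4 of 14 against CA3. In paraffin sections no UMI of Psmb5 was counted in CA1, 7 UMIs were counted in CA3 and 20 UMIs in DG, at least 2.55-fold lower in CA1 than in DG against a floor of 3 UMIs over the group. The differences between CA1 and DG were compared between conditions with an interaction term in 1 fit of all 48 replicates. Against TE-permeabilized fresh-frozen sections the log2 difference of the CA1 to DG effect was -3.72 ± 0.82 with HCl (adjusted p = 0.00404) and -3.94 ± 0.76 in fixed frozen sections (adjusted p = 0.00142), and it was called in paraffin sections too (adjusted p = 0.000338), where CA1 held no UMI and the size cannot be read. Psmb5 was the 1 member of 49 called in each of these 3 comparisons, in which 0.741%, 0.0953% and 0.482% of all genes were called.

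**Figure D5:**
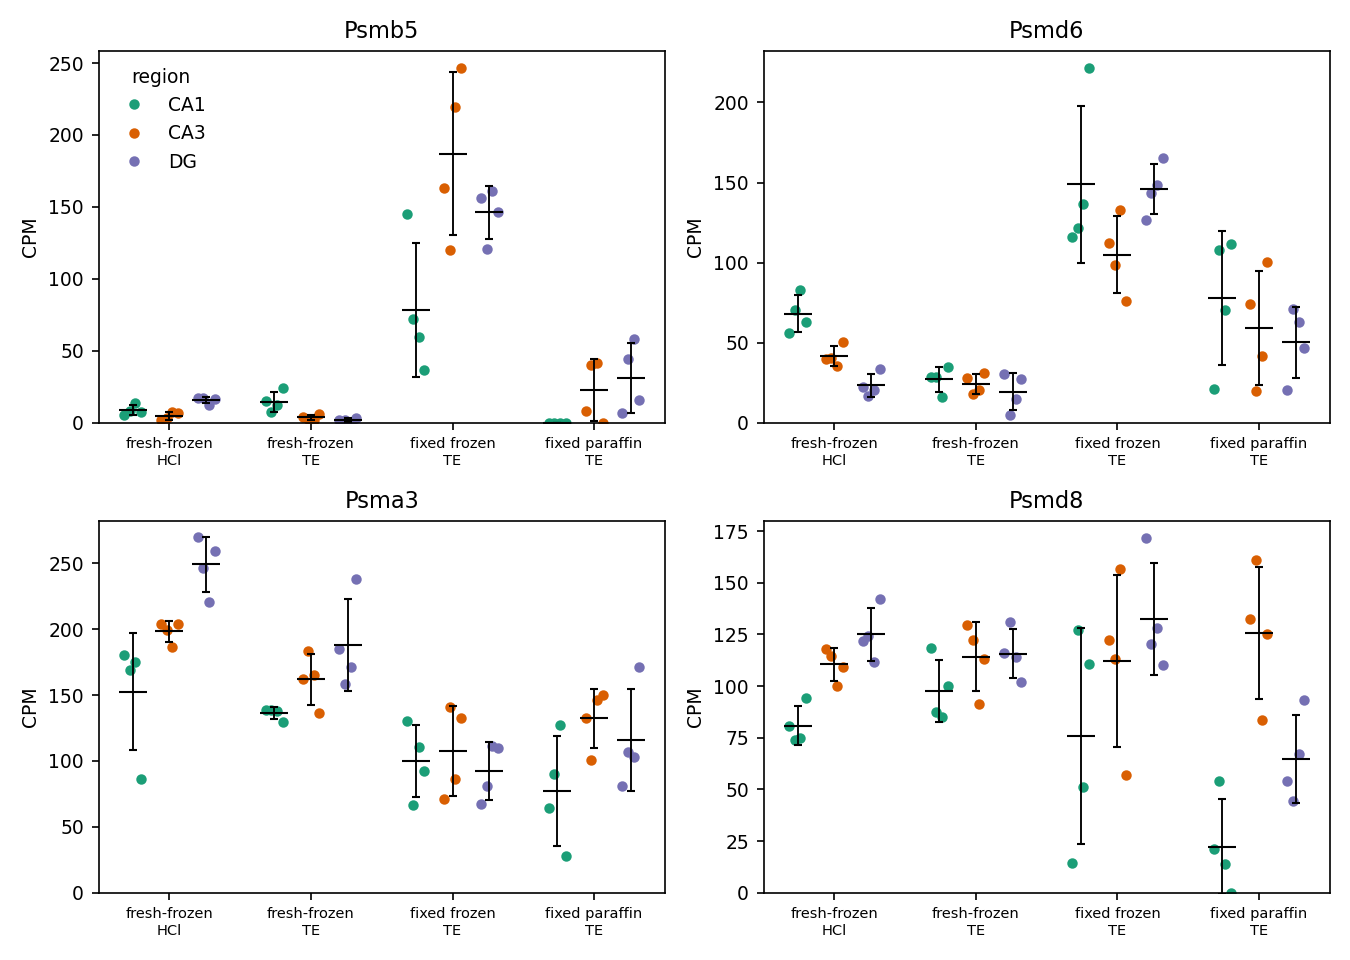
CPM of Psmb5, Psmd6, Psma3 and Psmd8 in each replicate (points) of 3 regions and 4 conditions, with the mean of 4 replicates as a horizontal line and ± 1 SD as bars, cut at 0. Psmb5 lies at or below 24.3 CPM in fresh-frozen sections and at 36.9 CPM or above in fixed frozen sections, and Psmd6 falls from CA1 to CA3 to DG in HCl-permeabilized sections.

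Proteins that work with the proteasome but lie outside the symbol rule were given by a list of 31 symbols, of which 27 were in the table. They include the ubiquitin shuttles of the Ubqln and Rad23 families, deubiquitinases, assembly factors and regulators such as Nfe2l1. They also include Adrm1 and Sem1, subunits of the 19S particle that the symbol rule does not match. Between CA1 and DG over all conditions 1 of 27 was called higher in CA1, Ubqln4 (log2 fold change 0.88 ± 0.28, adjusted p = 0.0167), a shuttle that carries ubiquitinated proteins to the proteasome. The 2 next by adjusted p, Ddi2, a protease that cuts the Nfe2l1 product (-0.36 ± 0.15, adjusted p = 0.0819), and Nploc4, a cofactor of the unfoldase Vcp (-0.44 ± 0.19, adjusted p = 0.0857), were not called. Between CA3 and DG 3 of 27 were called higher in CA3, the unfoldase Vcp (0.81 ± 0.26, adjusted p = 0.0222), the ubiquitin ligase Ubr4 (0.46 ± 0.14, adjusted p = 0.0164) and Nfe2l1 itself (0.34 ± 0.12, adjusted p = 0.0414), and Fbxo7, whose product binds Psmf1, was called lower (-1.0 ± 0.18, adjusted p = 4.41e-06). Between CA1 and CA3 Fbxo7 was called higher in CA1 (0.68 ± 0.18) and Nploc4 (-0.61 ± 0.18), Usp14 (-0.48 ± 0.13), a deubiquitinase of the 19S particle, Txnl1 (-0.40 ± 0.12) and Zfand2a (-0.49 ± 0.16) were called lower. Of all genes tested, 7.85% were called higher and 10.2% lower between CA1 and DG. These shares were 6.14% and 8.15% between CA3 and DG and 4.40% and 4.86% between CA1 and CA3. Between conditions the list went both ways, with 4 of 26 called higher and 8 lower with HCl (16.3% and 14.3% of all genes), 9 of 26 higher and 7 lower in fixed frozen sections (15.8% and 32.9%) and 1 of 25 higher and 5 lower in paraffin sections (13.1% and 15.1%). Its median log2 fold changes in these comparisons were -0.10, 0.16 and -0.19, beside -0.12, 0.32 and -0.75 for the members. The listed subunits Adrm1 and Sem1 were called higher in fixed frozen sections (2.81 ± 0.39 and 1.28 ± 0.17). Both were called lower in paraffin sections (-1.81 ± 0.53 and -0.75 ± 0.23), and neither was called with HCl.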

How the data were processed

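Per the labels and the methods, the authors read sample barcodes and 6-base UMIs with UMI-tools 1.0.0, aligned reads to GRCm38 (HISAT2 2.1.0), assigned them to genes (featureCounts 1.6.4) and deposited raw UMI counts for 48 replicates. The annotation release is not given in the sources used here, and 32515 gene identifiers, those of all 51 members included, were found in GENCODE M21. A 6-base UMI allows 4096 values and the largest count of a member was 377, so that saturation did not bear on the members. The description of the series names CA2 where the titles name CA3, and CA3 was used. That the 4 replicates are biological is the paper's statement, and p-values measure the spread between replicates that share 1 library per group. No replicate pair was identical, and over 72 pairs within groups the lowest chi-square per degree of freedom was 1.23.

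CPM were computed here from the totals. Tests used edgeR 4.0.16 in R 4.3.3 (quasi-likelihood test, TMM, at least 10 UMIs summed, Benjamini-Hochberg adjustment over all genes tested, called at 0.05). Regions were compared within each condition on 8 replicates and over all conditions with condition as a covariate. Conditions were compared with region as a covariate. Alternatives were DESeq2 1.42.0, its size factors in edgeR, no filter, the replicate number as a block, thinning to 35932 UMIs, library sums, leaving out replicates or conditions and, chosen after seeing the data, TMM factors from genes averaging 10 UMIs or more. The code was tested on simulated data, in which TMM factors from all genes tested shifted fixed frozen against fresh-frozen fold changes downwards at these unequal depths and gave more false calls than factors from genes averaging 10 UMIs or more. Replicates with the same number deviated together (r over 0.1 in all 4 pairs) in 4 of 12 comparisons. These were CA3 and DG with HCl and the 3 region pairs of TE-permeabilized fresh-frozen sections. Over 48 pairs r ran from 0.00104 to 0.433. The main tests took no account of the replicate number, which entered only the alternative with a block. Correlations between replicates with different numbers were not computed, and replicate 4 had the lowest total in 12 of 12 libraries. A pairing and a shared depth thus cannot be told apart. Python 3.11.15, numpy 2.4.6, pandas 2.3.3 and matplotlib 3.10.9 were used for summaries.

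The members and lists were chosen with earlier results of these data known. Values were given in full for the 10 members with the smallest adjusted p between CA1 and DG, those also called against CA3, the 5 largest called changes per pair of conditions, inducible subunits, non-subunits and the highest and lowest member of each role. Other members are named where they make up a small count and were chosen after their values were seen.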

Additional observations from a re-analysis of the deposited data

Results flagged for a closer look

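The difference of Psmb5 between CA1 and DG was not the same in all conditions, by the test of the difference itself in edgeR. Against TE-permeabilized fresh-frozen sections the log2 difference was -3.72 with HCl (adjusted p = 0.00404), -3.94 in fixed frozen sections (adjusted p = 0.00142) and, with no UMI in CA1 and therefore no interpretable size, -9.56 as fitted in paraffin sections (adjusted p = 0.000338). It rested on 36 UMIs in CA1 and 3 UMIs in DG of TE-permeabilized fresh-frozen sections, and the 4 replicates of each region shared 1 library. The test was not repeated under the alternatives.

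Among 12 groups of 4 replicates for the share of UMIs and 82 groups for 8 members with at least 20 UMIs in the group, 7 had a replicate whose gap to the nearest other was above Dixon's 95% critical value for 4 samples, where chance gives about 1 in 20. Replicate 4 of CA1 with HCl stood apart for Psma3 (86.4 CPM, others 169 to 181 CPM), for Psmb4 (181 CPM, others 105 to 115 CPM) and for Psmd3 (15.7 CPM, others 40.3 to 43.8 CPM). That replicate held 127253 UMIs, beside 610016 to 869363 UMIs in the others of its group. Its values rested on 11, 23 and 2 UMIs in this order. Replicate 3 of DG with HCl stood apart for Psmb5 (12.7 CPM, others 16.7 to 17.1 CPM). Replicate 4 of TE-permeabilized fresh-frozen sections stood apart in CA1 for Psma3 (130 CPM, others 138 to 139 CPM) and in DG for the share of UMIs (0.284%, others 0.312% to 0.315%). Replicate 3 of CA1 in paraffin stood apart for Psmd3 (184 CPM, others 42.7 to 55.7 CPM). The cause was not tested.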

How the results depend on the processing

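In fixed frozen against TE-permeabilized fresh-frozen sections 24 members were called, and 22 to 26 under the alternatives tried. Paraffin against fixed frozen gave 25 calls, 9 after thinning to 35932 UMIs and 18 to 22 when a replicate number was left out. HCl against TE gave 18 calls, 1 after thinning and 13 to 17 without single replicates, and its split of 5 higher and 13 lower became 8 and 12 with TMM factors from genes averaging 10 UMIs or more (chosen after seeing the data) and 8 and 13 with DESeq2. Over all conditions, CA1 against DG gave 6 calls, 0 after thinning, 1 with library sums, 1 without HCl-permeabilized sections and 2 to 4 without single replicates. CA3 against DG gave 0 calls, 2 with DESeq2, 1 without TE-permeabilized fresh-frozen sections, 1 without fixed frozen sections and 0 to 1 without single replicates. CA1 against CA3 gave 1 call, 2 with DESeq2, 0 after thinning and 0 without HCl-permeabilized sections.

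For most counts in this section the share of all genes under the same setting is not given, so that they cannot be set against the general rate. Thinning lowered the calls over all genes too, in HCl against TE from 16.3% higher and 14.3% lower to 3.70% and 3.43%. Within conditions, thinning gave 0 calls with HCl in all 3 region pairs, with TE in fresh-frozen sections for CA1 against DG and CA3, in fixed frozen sections for both comparisons with DG and in paraffin for CA1 against CA3. DESeq2 gave 1 call for CA3 against DG with HCl, and 0 for CA1 against CA3 in each condition and for both comparisons with DG in fixed frozen sections. Without a filter 0 members were called for CA1 against CA3 with HCl and for both comparisons with DG in fixed frozen sections, and DESeq2 size factors gave 0 for CA1 against DG there. TMM factors from the higher genes gave 2 for CA1 against CA3 with HCl and 1 for CA1 against DG in fixed frozen sections. The replicate block gave 2 in place of 1 for CA1 against CA3 with HCl, 4 in place of 1 for CA1 against DG in TE-permeabilized fresh-frozen sections, and moved no other count by over 1.5 times. Leaving out single replicates gave 1 to 4 for CA3 against DG with HCl, 0 to 2 for CA1 against CA3 with HCl, 1 to 2 for CA1 against DG with TE, 3 to 5 for CA1 against DG with HCl, and 0 to 1 for the other comparisons, apart from 0 for CA3 against DG with TE and in paraffin.

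After thinning, 5 called differences turned their sign, none of them called then, namely Psma2 in CA3 against DG (-0.17) and Psmd6 in CA1 against CA3 (-0.36) with HCl, and Psma2 (0.27), Psmd6 (-0.0833) and Psmd7 (0.19) in HCl against TE. Counting 20S and 19S subunits only, the share of UMIs was 0.253% (HCl), 0.265% (TE, fresh-frozen) and 0.415% (fixed frozen), and of nuclear-encoded UMIs the fixed frozen share was 0.491%. Without single replicates the shares were 0.290% to 0.291% (HCl), 0.293% to 0.305% (TE, fresh-frozen), 0.445% to 0.463% (fixed frozen) and 0.284% to 0.315% (paraffin). The cause of these changes was not tested, beyond the smaller counts that thinning leaves by construction. Depth limited the fixed tissues most, above all paraffin, whose smallest replicate held 35932 UMIs.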
